A study of Homo sapiens with 4 samples.

Results

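The regions described here are stretches of open chromatin that were listed as peaks in both libraries of tunicamycin-treated cells and in neither library of control cells, and whose widest peak reached 130 bp in each tunicamycin list. Merging the 4 deposited peak lists wherever peaks shared at least 1 bp gave 78788 regions. Of these, 2878 were gained, that is, listed in both tunicamycin libraries and in no DMSO library, and 691 of the gained regions met the width rule. The 691 regions were thus selected on measured values, namely presence in the lists and peak width, and their counts, summits and widths are described without a test. Gained means listed in one group and not in the other, since the reads at these positions were not analysed here.

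ATAC-seq, in which a transposase places sequencing adapters into accessible DNA, was run on wild-type HCT116 cells, an established human colorectal cancer cell line. A pair of libraries came from cells held for 6 h in tunicamycin at 0.5 µg/ml, and a pair from cells held for 6 h in 0.1% DMSO, the solvent control. The series calls the 2 libraries of a group biological replicates, and each was made from 50000 cells. All 4 libraries are from 1 cell line of 1 genotype at 1 time point. The comparison asked where chromatin was open in cells under endoplasmic reticulum (ER) stress and not in control cells.

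As background, tunicamycin blocks N-glycosylation, so that unfolded glycoproteins build up in the ER and the sensors IRE1, PERK and ATF6 start the unfolded protein response. Their transcription factors, among them XBP1, ATF4 and the cleaved form of ATF6, bind promoters and enhancers, where nucleosomes are displaced and the transposase can enter. In a peak list a wide peak is a long stretch of DNA on which the reads stayed above the caller's threshold. A narrow peak can rest on a few overlapping fragments. No gene annotation or genome sequence of hg19, the build of the files, was used here. Regions are therefore named by hg19 position, and neither genes nor sequences are assigned to them.

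The lists held 58467 and 62526 peaks in tunicamycin replicates 1 and 2 and 56581 and 56566 peaks in DMSO replicates 1 and 2. Between 72.9% and 73.2% of the peaks of each list were 130 bp or wider, so the share of wide peaks did not separate the groups. Medians of 15 reads (16 in tunicamycin replicate 2) lay at the summits of all peaks. Such summit reads are the pileup recovered from the deposited fold and p-value, and the read totals of the libraries were not used here.

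In the lists as deposited, more wide regions were shared by the tunicamycin libraries alone than by any other pair of libraries. The 691 wide gained regions made up 0.877% of all regions. Wide lost regions, listed in both DMSO libraries and in no tunicamycin library, numbered 364 (0.462%). Wide mixed regions, listed in exactly 1 tunicamycin and 1 DMSO library, served as the background. With tunicamycin replicate 1 they numbered 218 for DMSO replicate 1 (0.277%) and 229 for DMSO replicate 2 (0.291%). With tunicamycin replicate 2 they numbered 369 for DMSO replicate 1 (0.468%) and 363 for DMSO replicate 2 (0.461%). Their mean was 295 ± 82.4 (SD, n = 4 patterns), or 0.374% of all regions. Wide gained regions were thus 2.34 times as frequent as the mean mixed pattern (95% interval 2.13 to 2.58) and 1.87 times as frequent as the largest mixed pattern. The intervals here and below are Wilson intervals, which cover counting error only and hold no variation between libraries.

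The width rule kept 24.0% of all gained regions (95% interval 22.5% to 25.6%) and 24.9% of all lost regions (22.7% to 27.2%). It kept 16.7% to 19.6% of the 4 mixed patterns. Set against all gained regions, which were 1.81 times the mean of the mixed patterns, the wide ones stood further above their background. This was not particular to gained regions, since the rule also kept a larger share of lost than of mixed regions. Wide lost regions were 1.23 times the mean wide mixed pattern. Wide gained regions made up 65.5% of the wide gained and lost regions together (62.6% to 68.3%), a ratio of 1.90. Gained regions join the 2 longest lists and lost regions the 2 shortest. With every list reduced to its 56566 best-ranked peaks, 524 wide regions were gained and 577 lost, beside 291 to 317 for each mixed pattern, so that the ratio of gained to lost was 0.908. Shortening the lists makes the weakest tunicamycin peaks count as absent, which by construction lowers the gained number and raises the lost one. Gained regions thus outnumbered lost ones in the lists as deposited and not in lists of equal length, and in both settings gained regions outnumbered each mixed pattern. The ratio of gained to lost was 3.94 when tunicamycin replicate 1 was left out and 1.95 when replicate 2 was. Dropping DMSO replicate 1 gave 1.03, and dropping DMSO replicate 2 gave 1.06. These 4 ratios are not built like the one of 1.90, because a single remaining library has to list the peak alone.

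**Figure D1:**
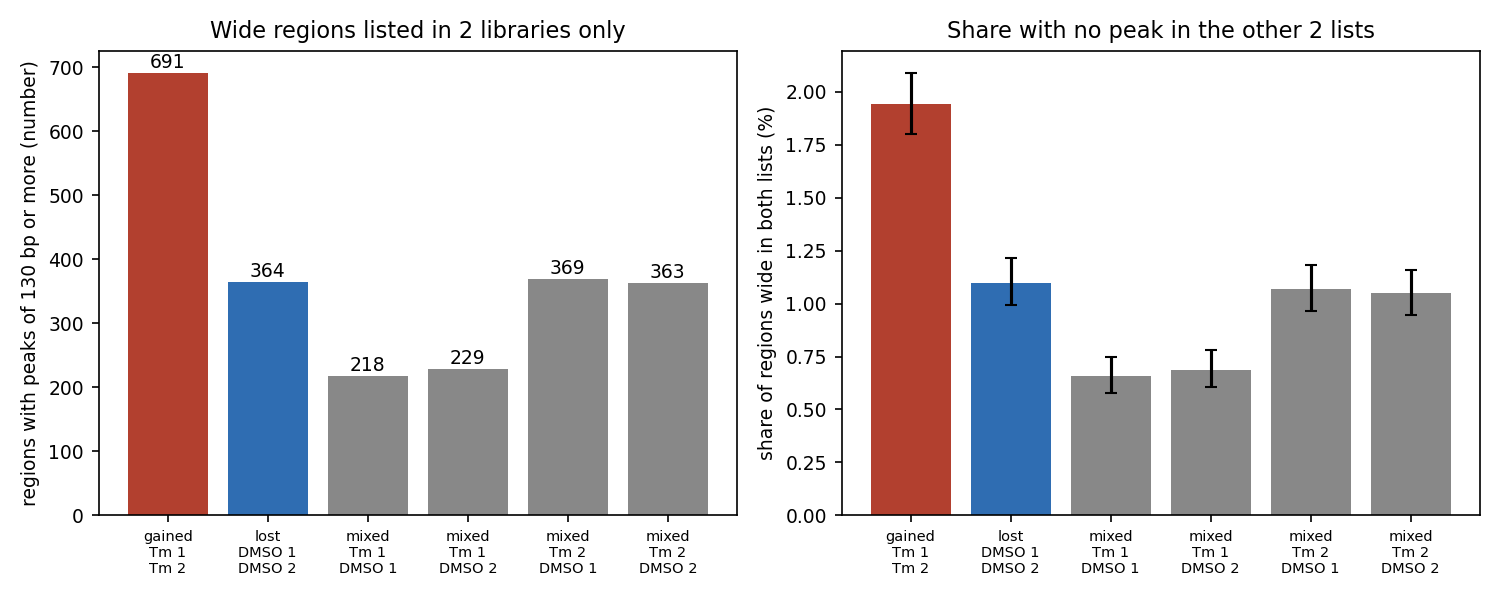
Wide regions listed in exactly 2 libraries, as numbers (left) and as a share of the regions wide in both of those libraries (right), with Wilson 95% intervals for counting error. Tm stands for tunicamycin and the digit for the replicate. The gained bar, 691 regions and 1.94%, is the tallest in both panels, and the lost and the tallest mixed bars lie close together.

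The numbers were also set against all regions wide in the same pair of lists, first in the lists as deposited. Of 35610 regions that were wide in both tunicamycin libraries, 1.94% (1.80% to 2.09%) had no DMSO peak. Of 33117 regions wide in both DMSO libraries, 1.10% (0.992% to 1.22%) had no tunicamycin peak. For the 4 mixed pairs the share with no peak in the other 2 libraries was 0.657% to 1.07%. In lists of equal length these shares were 1.51% for the tunicamycin pair, 1.74% for the DMSO pair and 0.856% to 0.934% for the mixed pairs, so that the order of the tunicamycin and DMSO pairs was turned round. A further 2179 regions wide in both tunicamycin libraries (6.12%) had a peak in 1 DMSO library, and 32740 (91.9%) had one in both. Where 1 DMSO library did list a peak, its median summit carried 10 reads, beside medians of 10 and 12 reads in tunicamycin replicates 1 and 2, and 35.1% of those DMSO peaks were under 130 bp wide.

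Strength was compared bin by bin, since weak peaks are missed more often in any library. Regions were sorted by the summit reads of the weaker of the 2 lists. With 3 to 5 reads, 139 of 625 regions wide in both tunicamycin libraries (22.2%) had no DMSO peak, beside 14.3% of regions wide in both DMSO libraries that had no tunicamycin peak. With 12 to 14 reads the number was 80 of 4487 (1.78%, 1.43% to 2.21%), beside 25 of 4506 (0.555%, 0.376% to 0.818%) for the DMSO pair and 0.336% to 0.892% for the mixed pairs. From 15 to 19 reads the tunicamycin pair had 35 of 6784 regions (0.516%, 0.371% to 0.717%). At 30 reads or more it had 2 of 7678 regions (0.0260%), against 0 of 6313 for the DMSO pair. A count of 0 was taken to allow up to 3 regions, a share of 0.0475%, which is not a Wilson limit. Absence from both DMSO libraries was thus rarer at stronger summits, and most wide gained regions lay in the bins under 12 reads. These shares rest on the presence in the lists by which the regions were chosen, and regions of 1 pair of libraries are not replicates.

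In lists of equal length the order of the pairs differed by strength. With 3 to 5 reads the share was 18.7% for the tunicamycin pair and 22.3% for the DMSO pair. With 6 to 7 reads it was 10.8% for the tunicamycin pair and 11.1% for the DMSO pair. With 12 to 14 reads it was 1.75% for the tunicamycin pair, 1.02% for the DMSO pair and 0.537% to 0.919% for the mixed pairs. With 15 to 19 reads it was 0.516% for the tunicamycin pair and 0.306% for the DMSO pair. The tunicamycin pair was thus below the DMSO pair at the weakest summits, nearly level with it at 8 to 9 reads (5.34% and 5.35%) and above it in the bins from 10 reads on. In both settings the reads were not scaled between libraries. Regions listed in all 4 libraries had median summits of 19 and 21 reads in tunicamycin replicates 1 and 2. In DMSO replicates 1 and 2 these were 18 and 19 reads, so equal reads need not mean equal strength.

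**Figure D2:**
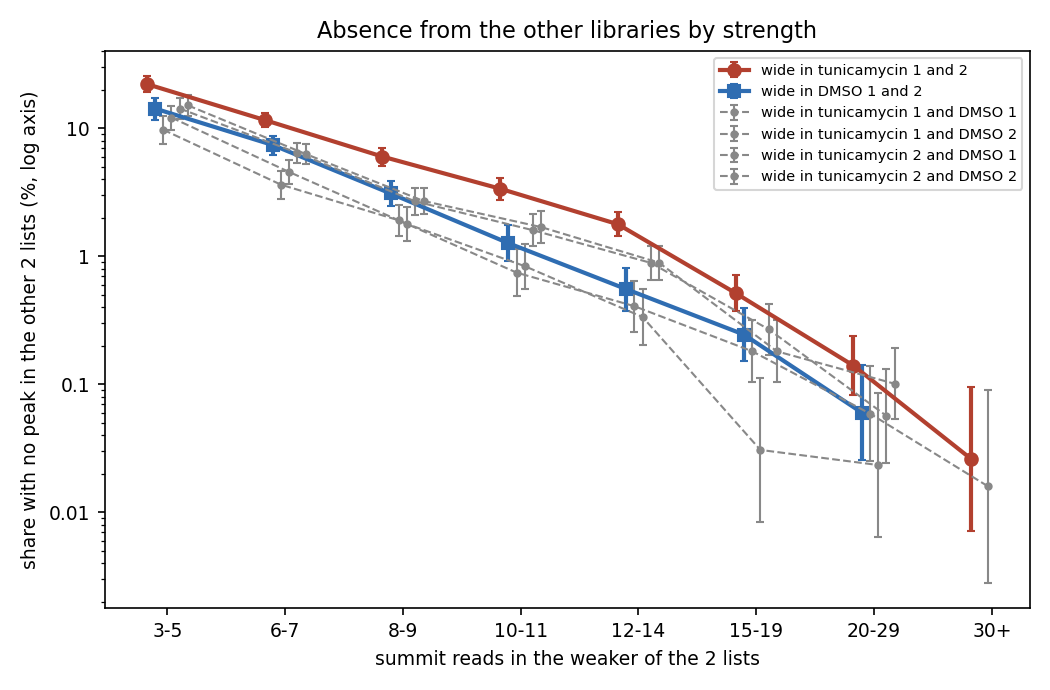
Share of regions, on a log axis and in the lists as deposited, that had no peak in the other 2 libraries, by the reads at the weaker summit of the 2 libraries in which they were wide. Points are set apart sideways for legibility, bars are Wilson 95% intervals for counting error, and shares of 0 are not drawn. The line of the tunicamycin pair drops with strength, 22.2% at 3 to 5 reads and 0.0260% at 30 or more, and lies above the DMSO pair and the 4 mixed pairs.

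Most of the 691 regions were weak. The reads at the summit had a median of 9 in both tunicamycin replicates, with a range of 3 to 38 in replicate 1 and 3 to 53 in replicate 2. The fold over local background, the authors' own value per peak, had medians of 6.93 in replicate 1 and 7.0 in replicate 2. The percentile rank of a peak's q-value in its own list, where 100 is the strongest, had medians of 19.8 in replicate 1 and 20.7 in replicate 2. Regions listed in all 4 libraries, called common regions here, had median ranks of 63.7 and 66.0 in the same lists. Gained regions with a peak under 130 bp had median ranks of 20.7 and 21.7 there, also with a median of 9 reads in each replicate. Wide lost regions had median ranks of 16.7 and 18.9 in DMSO replicates 1 and 2, and the wide mixed patterns 15.8 to 18.9. Low ranks were thus not particular to the wide gained regions. In 580 of the 691 regions both ranks were under 50, and in 29 both were over 50. The same limit was passed by 10 of 364 wide lost regions. Of wide mixed regions with tunicamycin replicate 1, 12 of 218 (DMSO replicate 1) and 4 of 229 (DMSO replicate 2) passed it. With tunicamycin replicate 2 these were 9 of 369 and 16 of 363. The wide gained class was also the largest of these. Its share past the limit was higher than in wide lost regions and in mixed patterns of different-numbered replicates. The mixed patterns of same-numbered replicates had a share at least as high as the wide gained one. In 2 wide gained regions both ranks were over 90, and 15 carried 20 or more reads at both summits.

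Summit reads of the 2 tunicamycin replicates went partly together. Replicate 2 had more summit reads than replicate 1 in 363 regions, fewer in 250 and as many in 78. Spearman's rho of summit reads between the replicates was 0.66 across the 691 regions, which share libraries and are not independent. All of them had to be listed in both replicates, and the reads needed for listing rise with local background. Some agreement is thus built in, and no such rho is given here for lost or mixed regions. The summits differed by more than 2 times in 17 regions. Width was less alike between replicates, with a rho of 0.33, and the rho of width and summit reads was 0.07 in replicate 1 and 0.10 in replicate 2. The choice of regions by width cuts the range of widths, so these values hold for the 691 regions and not for peaks at large.

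**Figure D3:**
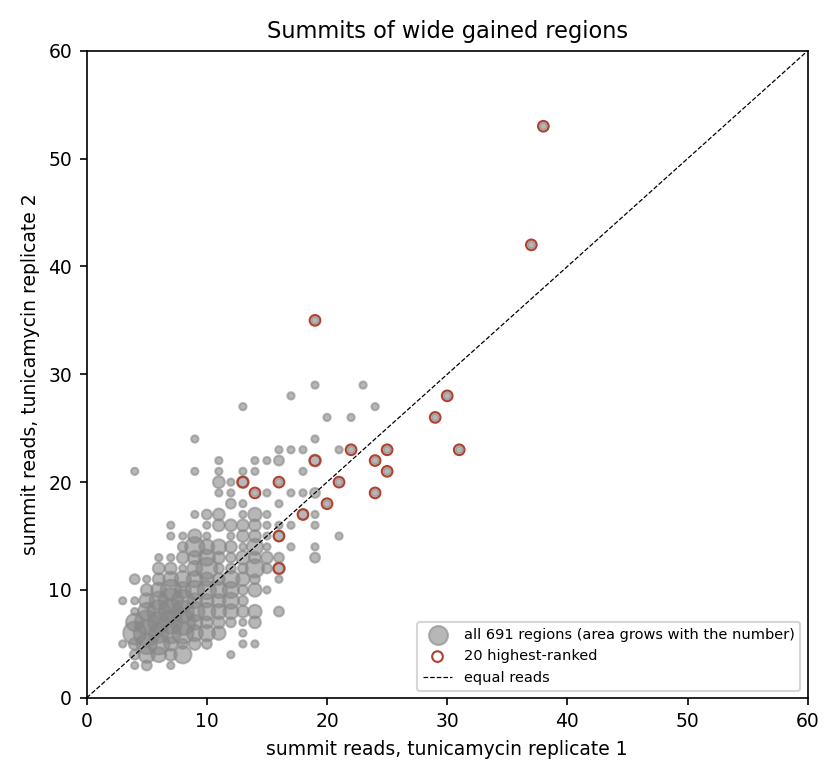
Reads at the summit in tunicamycin replicate 2 against replicate 1 for the 691 wide gained regions, with larger grey points where more regions share the same values. The 20 highest-ranked regions are ringed. Most points crowd near the median of 9 reads in each replicate, and 2 points stand far apart, at 38 and 53 reads and at 37 and 42 reads.

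The widths themselves lay close to the limit. The median width was 151 bp in tunicamycin replicate 1 and 156 bp in replicate 2, and the widest peaks reached 410 bp and 392 bp. In 259 regions (37.5%) the narrower of both peaks was under 140 bp. Both peaks reached 150 bp in 253 regions, 200 bp in 47 and 300 bp in 2. The merged regions spanned 131 to 446 bp with a median of 182 bp and covered 133 kb together. In 3 of the regions a list held 2 peaks.

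Summit positions were not used directly in choosing the regions. Each summit lies within its peak, however, so the shared bases and widths of the rule bound the distance between summits. The summits of both tunicamycin replicates lay a median of 24 bp apart in the wide gained regions, and within 20 bp of each other in 44.1% (40.5% to 47.9%). In wide lost regions the 2 DMSO summits lay a median of 27 bp apart, and 39.3% (34.4% to 44.4%) were within 20 bp. In the mixed patterns the medians were 27 to 29.5 bp and the shares 36.7% to 42.8%. Common regions had a median of 18 bp and a share of 55.6% between the same tunicamycin libraries. Gained regions with a peak under 130 bp had a median of 19 bp and a share of 53.2% (51.1% to 55.3%). The interval of the wide gained share overlapped those of the lost and mixed shares. It lay below the common share and below the interval of the gained regions that failed the width rule.

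Absence from the DMSO lists was examined in the names of the peaks. Each list numbers its peaks in order along each chromosome. In DMSO replicate 1, 651 of 57232 numbers are not listed, and in DMSO replicate 2, 660 of 57226. An unlisted number between the listed DMSO peaks on either side of a region could mark a peak that had been called and then left out. For 689 of the 691 regions no number was missing between these neighbours in either DMSO list. The 2 exceptions lay on chromosome 15, at chr15:74345369-74345505 with 12 and 14 summit reads in tunicamycin replicates 1 and 2, and at chr15:83290822-83291020 with 9 and 6 reads. With so few numbers unlisted, a gap would be rare at any set of positions, and other classes of regions were not counted. The names thus say little about absence from the DMSO lists. At the local background of its tunicamycin peaks, a region needed a median of 3 summit reads (range 3 to 11) to reach the weakest p-value listed for DMSO, a −log10 p of 3.67 in the stricter of both lists. Both tunicamycin summits were at least 2 times that number in 398 regions (57.6%) and at least 4 times in 26. In 82 regions 1 or both summits stood no more than 1 read above it. These margins were not counted in the other classes of regions. No list holds a peak under 100 bp, so a DMSO signal that passed the threshold over a shorter stretch would not be seen. The reads of the DMSO libraries at these positions were not analysed here.

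Some of the regions lay beside a peak that the control cells did have. A DMSO peak was listed within 50 bp of 12 regions, within 100 bp of 32 and within 250 bp of 91 (13.2%, 10.9% to 15.9%). Wide lost regions had a tunicamycin peak within 250 bp in 16.8% (13.3% to 20.9%), and mixed regions had a peak of the 2 remaining libraries that near in 12.2% to 19.3%. The median distance to the nearest DMSO peak was 5.77 kb. When peaks up to 250 bp apart were merged, 601 wide regions were gained and 302 lost, beside 183 to 317 mixed ones.

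The strongest wide gained region was chr8:145550311-145550525. Its summit carried 38 reads in tunicamycin replicate 1 and 53 in replicate 2, and the peaks were 208 bp and 214 bp wide. Its folds were 26.6 and 33.4, and its ranks averaged 97.6. The summits lay 2 bp apart. It was also one of the regions near open chromatin of control cells, with the nearest DMSO peak 74 bp away and the centre of a common region 239 bp away. Among the 20 highest-ranked regions it was the only one with a DMSO peak within 250 bp.

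The second, chr2:135883151-135883312, lay far from other open chromatin. Its summits carried 37 and 42 reads in tunicamycin replicates 1 and 2 and lay 1 bp apart, with peaks of 153 bp and 157 bp and a mean rank of 97.1. The nearest DMSO peak was 72883 bp away and the nearest common region 73423 bp away. At the local background of its tunicamycin peaks a DMSO summit of 4 reads would have passed the threshold.

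The other 18 of the 20 highest-ranked regions were weaker, and 8 of them also lay more than 10 kb from any common region. At chr4:106321054-106321199 the summits carried 24 and 19 reads in tunicamycin replicates 1 and 2 and lay 3 bp apart, and no DMSO peak was listed within 71631 bp. At chr19:35079269-35079414 they carried 25 and 21 reads, 31527 bp from the nearest DMSO peak. A pair of summits at the same base, with 21 and 20 reads, marked chr20:509967-510131, 14171 bp from a DMSO peak. These 3 regions had peaks of 136 to 165 bp and mean ranks of 83.2, 81.3 and 75.4. The last of them had the closest summits of the 20 regions.

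At chr11:93904945-93905091 the summits carried 18 and 17 reads in tunicamycin replicates 1 and 2, and a DMSO peak lay 11977 bp away. At chr12:55329163-55329339 they carried 16 and 20 reads, with a DMSO peak 22597 bp away. More uneven was chr4:114221612-114221780, with 13 and 20 reads and peaks of 169 bp and 132 bp. At chr6:43878503-43878694 the 20 and 18 reads peaked 65 bp apart, the largest summit distance of the 20. The lowest rank of the 20, a mean of 59.9, was held by chr1:40904212-40904382 with 16 and 12 reads. In these 5 regions, as in the 3 before them, both replicates had at least 12 reads at the summit and neither DMSO library had a peak within 10 kb.

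Other members of the 20 lay beside chromatin that was open in all 4 libraries. The region chr9:96846644-96846879 had 30 and 28 summit reads in tunicamycin replicates 1 and 2 and peaks of 195 bp and 188 bp, and a common region lay 956 bp away. At chr6:41755201-41755455 the summits carried 31 and 23 reads and the peaks, 236 bp and 255 bp, were the widest of the 20, with a common region 976 bp away. At chr10:103699053-103699254, with 25 and 23 reads, a common region lay 892 bp away. For chr11:119039359-119039492, with 29 and 26 reads, this distance was 783 bp. For chr17:62051601-62051753, with 24 and 22 reads, it was 504 bp. Just beyond that limit, at 1150 bp, was chr2:233190793-233190954 with 22 and 23 reads. In all, 6 of the 20 lay within 1 kb of a common region and 9 lay more than 10 kb from any.

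The remaining 4 lay between those distances. At chr12:104688043-104688206 the replicates differed most, with 19 reads in tunicamycin replicate 1 and 35 in replicate 2. Wide peaks, of 217 bp and 240 bp, marked chr17:46133105-46133371 with 19 and 22 reads. Similar peaks, of 217 bp and 230 bp, marked chr16:57118226-57118455 with 14 and 19 reads. The last, chr3:98460321-98460479, carried 16 and 15 reads. Over the 20 regions, 10 had 20 or more reads at both summits, 16 had summits within 20 bp of each other, and 14 chromosomes were represented.

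**Figure D4:**
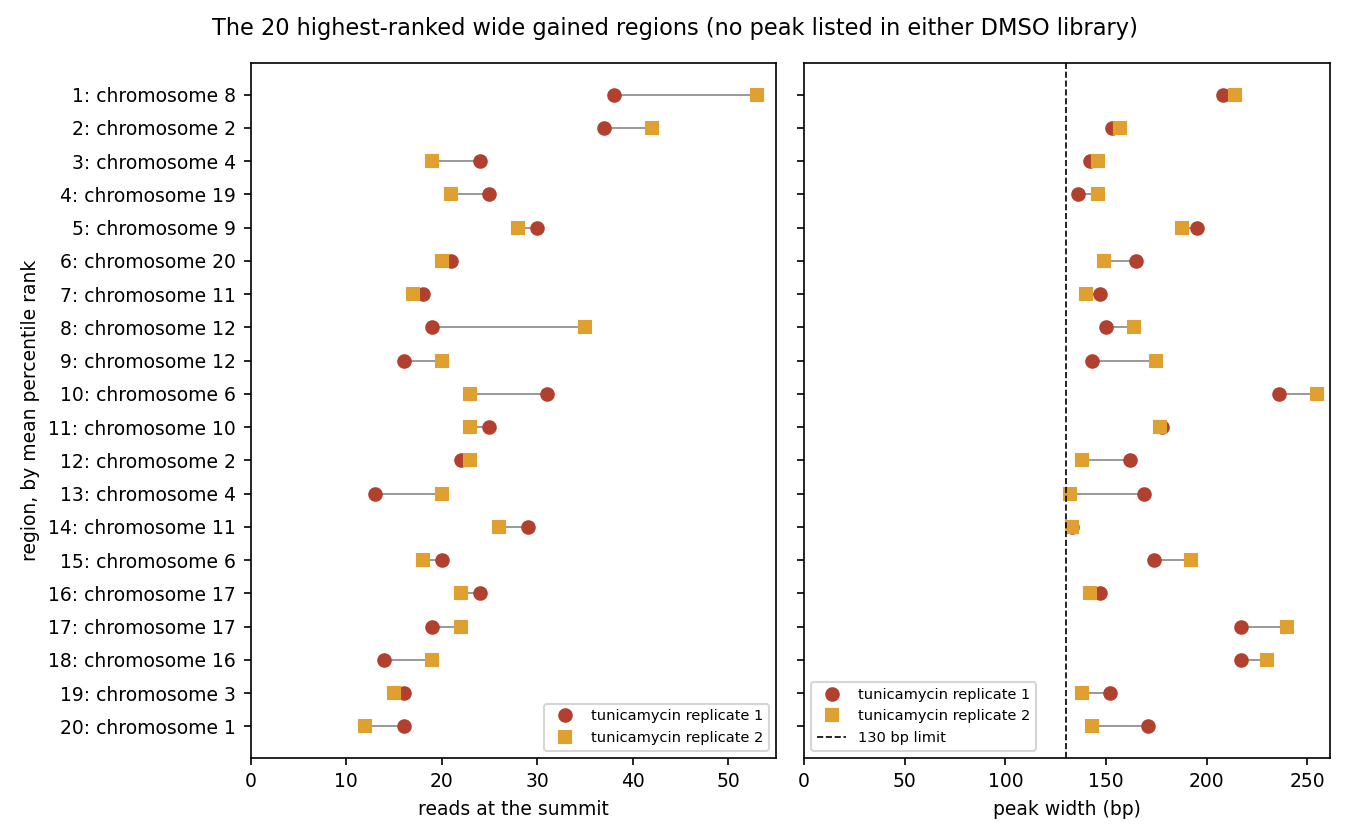
Reads at the summit (left) and peak width in bp (right) in both tunicamycin replicates for the 20 highest-ranked wide gained regions, by mean percentile rank, with the 130 bp limit dashed. Neither DMSO library listed a peak in any of them. The first 2 regions stand apart in reads, while width shows no order by rank.

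The 6 regions widest by the narrower of their 2 peaks were not among the 20 highest-ranked. At chr5:60626622-60626987 the peaks spanned 316 bp and 366 bp with 13 summit reads in each tunicamycin replicate, and a common region lay 1144 bp away. At chr10:112167987-112168312 they spanned 300 bp and 319 bp, with 14 and 22 reads. The summits of that region lay 183 bp apart, so that both replicates shared a broad stretch and not a common summit. The region chr3:37217353-37217629 had peaks of 277 bp and 273 bp, 15 and 16 reads, and a DMSO peak 92 bp away. At chr1:1900574-1900877 the replicates differed, with 9 and 21 reads under peaks of 279 bp and 270 bp. At chr10:128039151-128039449 peaks of 256 bp and 299 bp held summits of 7 reads in each replicate, 153582 bp from the nearest common region. At chr3:28095307-28095598 peaks of 255 bp and 292 bp also held summits of 7 reads, 110648 bp from a common region.

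The width limit parted regions that differed by 1 bp. The 3 highest-ranked members with a narrower peak of exactly 130 bp had mean ranks of 51.1 to 53.5. Of these, chr1:180490770-180490913 had peaks of 143 bp and 130 bp with 14 and 12 summit reads in tunicamycin replicates 1 and 2. At chr7:128021280-128021438 the peaks were 140 bp and 130 bp with 17 and 14 reads, and a DMSO peak lay 129 bp away. At chr7:32840178-32840323 they were 130 bp and 146 bp with 10 and 13 reads.

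The 3 highest-ranked gained regions that missed the limit by 1 bp had higher mean ranks, 68.5 to 70.9. Of these, chr2:207846561-207846716 had peaks of 153 bp and 129 bp with 20 and 15 reads. At chr6:132128764-132128916 the peaks were 129 bp and 146 bp with 19 and 25 reads. At chr6:36043605-36043739 they were 129 bp and 135 bp with 18 and 14 reads. Each of these 3 regions ranks above 8 or more of the 20 regions described above, so strong gained regions lie on both sides of the limit.

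Among the wide gained regions 3 pairs had less than 10 kb between them. Such pairs were not counted in the other classes of regions. On chromosome 16, chr16:19896131-19896318 and chr16:19897658-19897889 lay 1339 bp apart, and each had more reads in tunicamycin replicate 2 than in replicate 1, with 9 and 14 reads at the one and 7 and 13 at the other. On chromosome 19, chr19:44033845-44034005 (12 and 18 reads) and chr19:44039746-44039910 (19 and 13 reads) lay 5740 bp apart. Their local background, 1.34 to 2.28 reads, was above the medians of 0.272 and 0.274 reads of the members in tunicamycin replicates 1 and 2. On chromosome 13, chr13:73995742-73995995 (12 and 7 reads) and chr13:74002419-74002636 (8 and 7 reads) lay 6423 bp apart. The nearest common region was 299022 bp from the one and 305681 bp from the other, but a DMSO peak lay 162 bp from the first.

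In distance from common regions, wide gained regions lay close to wide lost and to pooled mixed regions, while 1 mixed pattern stood apart. The median distance to the nearest common region was 10.1 kb, against 9.73 kb for wide lost and 10.7 kb for wide mixed regions. Within 1 kb of a common region lay 118 of 691 wide gained regions (17.1%, 14.5% to 20.1%), 64 of 364 lost ones (17.6%, 14.0% to 21.8%) and 215 of 1179 mixed ones (18.2%, 16.1% to 20.5%). Within 10 kb lay 49.8% (46.1% to 53.5%) of the wide gained regions, 50.8% of the lost ones and 49.6% to 54.1% of 3 mixed patterns. The pattern of tunicamycin replicate 1 and DMSO replicate 2 had 37.1% (31.1% to 43.5%) and a median distance of 14.9 kb. More than 100 kb away lay 50 wide gained regions (7.24%), 5.77% of the lost and 5.09% of the mixed ones. For 5 wide gained regions more than 1 common region lay within 1 kb, and for none did 3 or more. The extremes were chosen after their values had been seen. The nearest was chr3:15468762-15468907, 225 bp from a common region, with 8 and 9 summit reads in tunicamycin replicates 1 and 2. The most remote was chr13:68765068-68765242, 736536 bp from one, with 6 and 8 reads under peaks of 175 bp and 169 bp.

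**Figure D5:**
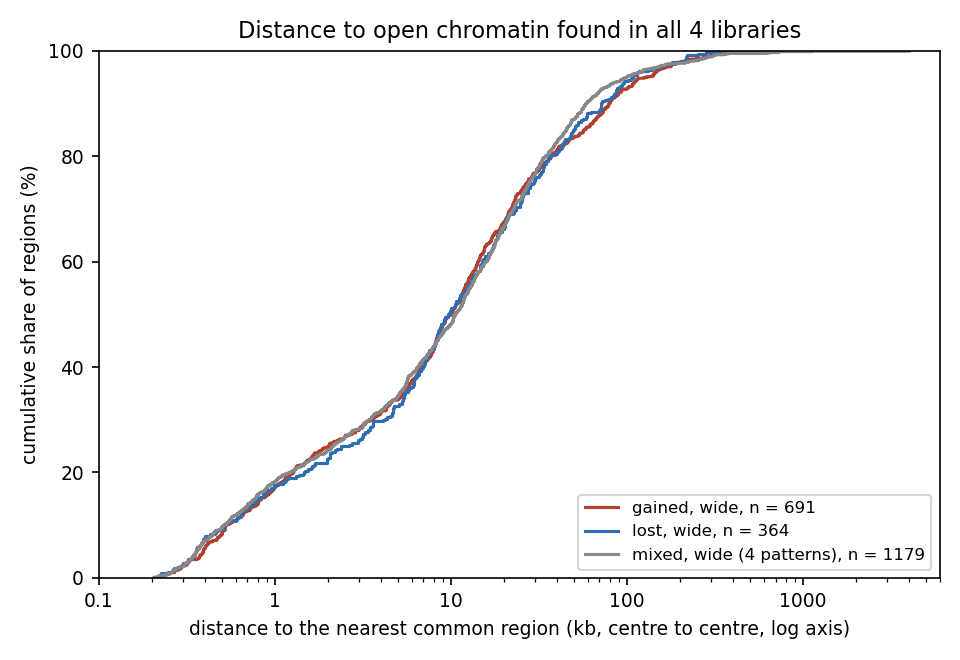
Cumulative share of wide regions by distance to the nearest region listed in all 4 libraries, in kb on a log axis, for 691 gained, 364 lost and 1179 mixed regions. The 3 curves lie on each other over most of the range, with medians of 10.1, 9.73 and 10.7 kb.

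The common regions nearest to wide gained regions, where within 1 kb, did not rank higher in tunicamycin than in DMSO libraries. Ranks of these 118 neighbours were taken among all 40447 common regions of each library. Their mean percentile rank was 44.6 and 47.4 in tunicamycin replicates 1 and 2 and 47.2 and 48.9 in DMSO replicates 1 and 2. The 2 tunicamycin ranks exceeded the 2 DMSO ranks in 18 of the 118 (15.3%, 9.87% to 22.8%), where 18% of all common regions did so. Both were lower in 22 (18.6%, 12.6% to 26.6%), where 18.3% of all common regions did. Their median width was 185.5 bp and 190 bp in the tunicamycin replicates and 185.5 bp and 191 bp in the DMSO replicates. A rise of the neighbouring open chromatin was not seen in these ranks.

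Every chromosome listed, 1 to 22 and X, held wide gained regions. Chromosome 1 held the most, 62 regions, and chromosome 21 the fewest, 4. Chromosome X held 23 regions, or 3.33% (2.23% to 4.95%) of the wide gained ones, beside 3.57% of the lost, 2.88% of the mixed and 1.32% (1.22% to 1.44%) of the common regions. Chromosome 4 held 40 (5.79%, 4.28% to 7.79%) and chromosome 14 held 30 (4.34%, 3.06% to 6.13%), beside 4.20% and 3.17% of the common and 4.58% and 4.24% of the mixed regions. Chromosome 12 held 38 (5.50%, 4.03% to 7.46%) against 36 lost regions (9.89%, 7.23% to 13.4%). On every chromosome the interval of the wide gained share overlapped that of the mixed share, so the spread over chromosomes was close to that of the background. The local background was at the lowest, genome-wide level in 84 and 97 of the 691 wide gained regions in tunicamycin replicates 1 and 2 (12.2% and 14.0%). It was so in 12.1% and 9.89% of wide lost regions in DMSO replicates 1 and 2, in 11.0% to 17.0% of the wide mixed patterns and in 2.24% to 2.78% of common regions.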

How the data were processed

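ATAC-seq peaks of 4 HCT116 libraries were analysed. Per the submitters' processing notes, the authors used MACS2 2.2.7.1, Bowtie2 2.3.5.1, Trim Galore, deepTools, Picard 2.18.23 and SAMtools, with the build hg19. The sources used here do not give their order and settings, peak filters or any shift for the transposase. The authors deposited 1 list per library, whose columns hold a whole-number score, a fold (ratio of summit pileup to local background), −log10 p-values and −log10 q-values, and the summit's offset within the peak. These are values within a library, and no scaling between libraries is known.

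Groups came from the titles. A whole-number pileup whose fold and Poisson −log10 p-value matched the deposited ones within 0.001 existed for 100% of peaks, and is given as summit reads. It is unknown what was piled up and over what length. Read totals were not used, so depth is unknown. Lists were merged at 1 shared bp, and the steps were tested on simulated data (Python 3.11.15, pandas 2.3.3, numpy 2.4.6, scipy 1.17.1). Positions are 1-based. Presence in 2 libraries a group allows no test of a single region, and none was made over regions. Regions named were the 20 best by mean rank, the 6 widest, 3 on each side of the limit and pairs within 10 kb. The few others were chosen after their values were seen. The members, the 130 bp limit and the other choices were made with earlier results of these data known. Alternatives were stricter widths and q-values, equal list lengths, other overlaps and each library left out. The reference gene tables are of another build, so genes and sequences were not used.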

Additional observations from a re-analysis of the deposited data

How the results depend on the processing

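The number of wide gained regions was 691, and that above the 50th percentile in both tunicamycin lists was 29. With widths of at least 150 bp and 200 bp they were 253 and 47, and 9 and 4. With −log10 q of at least 10 in all lists they were 1063 and 149, because a weaker DMSO peak then counts as absent. With the full lists kept for absence, an alternative chosen after seeing the data, 152 regions were left. A reciprocal overlap of 50% gave 81 regions above the 50th percentile. The ratio to the mean mixed pattern stayed above 1 under every alternative, but those without a tunicamycin library cannot bear on it. It was 3.42 at 200 bp, 1.75 with lists of equal length, 2.07 with a reciprocal overlap of 50%, and 2.63 and 3.95 with −log10 q of at least 5 and 10 where listed. The ratio of gained to lost regions was 1.62 at 150 bp, 1.57 at 200 bp, 3.00 with −log10 q of at least 10 in all lists and 2.98 with that limit where listed. With lists of equal length it reversed to 0.908. The share within 1 kb of a common region, 17.1%, was 10.6% at 200 bp, 11.3% and 13.8% under the 2 settings with −log10 q of at least 10, and 8.32% with peaks up to 250 bp apart merged, which removes near regions by construction. It was 8.10% within 500 bp and 33.7% within 5 kb.

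Leaving out each library in turn gave 1783 to 3036 wide gained regions, 159 to 175 of them above the 50th percentile, ratios of 1.90 to 2.18 to the mixed patterns and of 1.03 to 3.94 to lost regions, and shares of 18.2% to 19.5% within 1 kb. A rule on fewer lists is easier to meet, which raises the counts. With tunicamycin replicate 1 or 2 left out, gained regions need a peak in 1 list and mixed regions in 2. The ratios to the mixed patterns there, 2.18 and 2.06, are thus not built like the one of 2.34. The cause of the other changes was not tested. No paired analysis was possible because the results come from no test, but the mixed patterns show how often libraries shared a wide region by replicate number. Same-numbered pairs shared 218 and 363 such regions, and pairs of different number 229 and 369. A median of 9 summit reads limits most calls of absence.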
